A study of Mus musculus with 6 samples.

Results

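Chromatin accessibility near 43 genes of the Wnt pathway was compared between parent Sox2–mCherry NSPCs and ΔSRR2–18 NSPCs. The genes encode 16 ligands, 10 Frizzled receptors, 2 LRP co-receptors, 2 axins, 4 TCF/LEF factors, 4 R-spondins and 5 secreted inhibitors of the Dkk and Sfrp families. ATAC-seq, in which a transposase inserts adapters into open DNA, was carried out on 3 cultures of each line, and the deposited peak lists pool the 3 cultures. An accessible interval of a list was assigned to the gene with the nearest protein-coding transcription start site (TSS) to its strongest summit, up to 50 kb away. Under this rule, 515 of the 190365 intervals in both lists belonged to the 43 genes, 241 of 82885 in the parent list and 274 of 107480 in the ΔSRR2–18 list, and each of the 43 genes had at least 1 interval. An interval that no interval of the other line overlapped by 1 bp or more is called parent-only or deletion-only, and the rest are called shared.

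Both lines were NSPCs derived from hybrid ESCs of the strain labelled 129S1/Cast F1 Hybrid, and both carried the Sox2-mCherry allele on the 129 chromosome. The parent line is a single clone (Clone 5B) with no deletion. The ΔSRR2–18 line is also a single clone (Clone 47D), and lacks on both alleles the enhancer cluster SRR2-18 that lies downstream of *Sox2*. A difference between the lines therefore cannot be told apart from a difference between clones. Because each list is 1 pooled value per line, there was no replicate error, and no difference between the lines could be tested. Intervals given with shares are 95% Wilson intervals and cover counting error only. All 8 NSPC marker genes examined had a promoter interval in both lists, while 1 of 4 ESC markers (*Esrrb*) did in each. The level of these promoters (summit reads scaled for depth, set out further on) was lower in the ΔSRR2–18 list at all 8 NSPC markers. Parent and ΔSRR2–18 levels were 115 and 36.2 at *Sox2*, 51.6 and 12.1 at *Sox1*, and 94.3 and 22.6 at *Fabp7*. They were 47.2 and 18.4 at *Msi1*, 130 and 73.1 at *Pax6*, and 133 and 62.5 at *Notch1*. Those of *Nes* were 90.4 and 51.6, and those of *Vim* 105 and 102. Lower levels were common in the ΔSRR2–18 list. The median log2 ratio (ΔSRR2–18 over parent) of all 11493 promoters in both lists was −0.47. Of 4 neuronal markers, 2 had a promoter interval in the parent list and 3 in the ΔSRR2–18 list, and the numbers were the same for 4 mesoderm and endoderm markers. Of 4 glial markers, 1 (*Mbp*) had one in each list, with levels of 5.46 and 18.7. Among the mesoderm and endoderm markers, *Foxa2* had levels of 6.18 and 11.4 and *Gata4* had 99.2 and 25.7. Levels at *Esrrb* (61.0 and 23.1), *Map2* (134 and 52.5) and *Tubb3* (92.4 and 76.6) were lower in the ΔSRR2–18 list. The part of these marker differences in the values of the Wnt genes was not tested.

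Wnt proteins are secreted, lipid-modified ligands that bind Frizzled receptors together with the LRP5 and LRP6 co-receptors. In the canonical branch, binding blocks the axin complex that marks β-catenin for destruction, and β-catenin then joins TCF/LEF factors on DNA. R-spondins strengthen the response by sparing Frizzled receptors from turnover, Sfrp proteins bind Wnt ligands, and Dkk1 and Dkk2 bind LRP co-receptors. In the early nervous system Wnt signals are known for assigning caudal and dorsal identities and for sustaining progenitor division.

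The sequences below show the kinds of elements found in 1 list alone, each over the strongest summit with 50 bp on either side. They are read from the plus strand of the reference genome (RefSeq GRCm38.p6, the same build as mm10), so *M. castaneus* bases are not shown. Capitals mark exact matches, on either strand, to consensus motifs for SOX (ACAATGG or ACAAAGG), TCF/LEF (CTTTGAT or CTTTGAA) and AP-1 (TGANTCA). The parent-only examples carry SOX matches, and the first also carries a TCF/LEF match close by.
*Lef1*, parent-only, chr3:131072763-131072863: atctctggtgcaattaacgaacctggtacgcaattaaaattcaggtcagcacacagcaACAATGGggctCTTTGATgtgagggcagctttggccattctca
*Tcf7l2*, parent-only, chr19:55788441-55788541: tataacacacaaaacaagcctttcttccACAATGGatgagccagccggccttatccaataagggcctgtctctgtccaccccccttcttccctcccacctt
*Dkk3*, parent-only, chr7:112132146-112132246: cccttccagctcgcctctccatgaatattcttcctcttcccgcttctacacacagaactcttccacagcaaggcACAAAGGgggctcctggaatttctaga
*Wnt5b*, parent-only, chr6:119514239-119514339: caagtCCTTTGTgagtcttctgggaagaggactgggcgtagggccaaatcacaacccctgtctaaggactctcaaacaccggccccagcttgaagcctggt

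The deletion-only examples carry AP-1 matches, 1 of them beside a TCF/LEF match and 1 with a pair of AP-1 matches.
*Rspo2*, deletion-only, chr15:43179695-43179795: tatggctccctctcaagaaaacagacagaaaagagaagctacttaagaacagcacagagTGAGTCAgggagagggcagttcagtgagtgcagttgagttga
*Lef1*, deletion-only, chr3:131085387-131085487: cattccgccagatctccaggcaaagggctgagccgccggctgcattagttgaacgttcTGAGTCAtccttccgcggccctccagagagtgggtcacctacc
*Wnt16*, deletion-only, chr6:22270381-22270481: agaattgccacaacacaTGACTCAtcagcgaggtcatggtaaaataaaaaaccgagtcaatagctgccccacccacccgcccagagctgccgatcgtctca
*Sfrp2*, deletion-only, chr3:83752416-83752516: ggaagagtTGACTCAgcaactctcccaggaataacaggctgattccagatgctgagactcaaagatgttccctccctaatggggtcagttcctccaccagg
*Dkk2*, deletion-only, chr3:132059790-132059890: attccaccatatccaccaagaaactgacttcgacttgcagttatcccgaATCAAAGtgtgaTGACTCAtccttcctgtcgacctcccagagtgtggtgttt
*Dkk2*, deletion-only, chr3:132105633-132105733: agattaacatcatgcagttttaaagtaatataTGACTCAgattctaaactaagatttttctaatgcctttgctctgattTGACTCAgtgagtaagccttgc

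These windows were shown for their matches, and most intervals of either kind had no match to SOX or TCF/LEF. The *Lef1* gene, which encodes a TCF/LEF factor, has both kinds of element upstream. Its parent-only interval lay 37.7 kb upstream of a TSS with a fold enrichment of 21.2 over the local background, among the top 6.99% of the parent list. Its deletion-only interval lay 25.0 kb upstream with a fold enrichment of 22.4, among the top 6.73% of the ΔSRR2–18 list. The *Rspo2* interval, 8.92 kb upstream of a TSS, had a fold enrichment of 27.9 and stood in the top 0.921% of its list, the highest of all deletion-only intervals of the 43 genes.

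To compare signal strength between lists, the reads at each summit were solved from the deposited fold enrichment and −log10 p and divided by the lowest background of the list. That floor stood at 38.8 reads for the parent and at 19.7 for ΔSRR2–18 (1.98 times apart), so sequencing was deeper for the parent line. The quotient, reads over genome background, is the depth-scaled level used throughout. At a site with a lower level, fewer open cells and less opening per cell cannot be told apart.

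Parent intervals of the Wnt genes divided about equally into parent-only (121) and shared (120). Of the 241 parent intervals, 121 (50.2%, 43.9 to 56.5) were parent-only, compared with 45.0% of all 55017 parent intervals within 50 kb of a TSS. Of the 274 ΔSRR2–18 intervals, 154 (56.2%, 50.3 to 62.0) were deletion-only, compared with 53.0% of all 64666. Both shares of the Wnt genes were thus near their backgrounds. Nearly all of the turnover lay outside promoters, where 114 of 191 parent intervals (59.7%, background 57.2%) and 153 of 229 ΔSRR2–18 intervals (66.8%, background 64.5%) were found in 1 list alone. Within 1 kb of a TSS, 7 of 50 parent intervals (14.0%, 6.95 to 26.2, background 8.91%) were parent-only. The only deletion-only promoter interval among 45 (2.22%, 0.393 to 11.6) was that of *Wnt16*, against a background of 14.0%. The optimal list of the other line, a second list that the authors' pipeline gives, also lacked 111 of the 121 parent-only and 149 of the 154 deletion-only intervals. When both lists were cut to the same length by fold enrichment, the order of the counts turned, with 151 parent-only and 106 deletion-only intervals.

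The 43 genes have more room for intervals than most genes. The stretch of DNA nearest to a gene's TSS, within 50 kb on each side, had a median of 83.4 kb for the Wnt genes and 47.2 kb for all genes. Per Mb of this DNA, the Wnt genes had 70.4 parent and 80.0 ΔSRR2–18 intervals, and all genes had 47.0 and 55.2. The number of deletion-only intervals divided by that of parent-only intervals was 1.27 for the Wnt genes and 1.38 for all genes. Parent-only and deletion-only intervals lay at a median of 21.2 kb and 21.4 kb from the TSS. Parent-only intervals were richer in G and C around the summit (mean 55.0%) than deletion-only intervals (49.9%), and the means of all genes were 51.6% and 47.7%.

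The roles differed in this balance. Secreted inhibitors had 7 parent-only and 30 deletion-only intervals, and the R-spondins had 2 and 11. Of the ΔSRR2–18 intervals of secreted inhibitors, 30 of 40 (75.0%) were deletion-only. Of those of R-spondins, 11 of 18 (61.1%) were, compared with 53.0% over all genes. The Frizzled receptors (23 and 23), LRP co-receptors (10 and 10) and axins (5 and 5) had equal numbers. Ligands had 45 and 50. That order turned at an IDR score (agreement across cultures) of at least 830 (45 and 42) and within 10 kb (16 and 13). The TCF/LEF factors were the only role with more parent-only than deletion-only intervals, 29 and 25. Their order turned with the optimal lists (22 and 27) and at that IDR score (23 and 25). It also turned at a −log10 p of at least 50 at a common depth (23 and 26). Deletion-only over parent-only was 4.29 for secreted inhibitors and 5.50 for R-spondins, compared with 1.38 for all genes. The R-spondin value rests on only 2 parent-only intervals. With lists of the same length, secreted inhibitors had 9 and 20 and R-spondins had 2 and 8, whereas ligands had 65 and 34 and TCF/LEF factors 32 and 16. At 10 kb in place of 50 kb, secreted inhibitors had 1 and 6 and R-spondins 0 and 3.

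Gene by gene, 20 of the 43 genes had more deletion-only intervals, 16 had more parent-only intervals and 7 had equal numbers. This split was not counted over all genes, so it has no background of its own. Counted by interval, deletion-only over parent-only was 1.27 for the Wnt genes and 1.38 for all genes. The 8 genes whose counts differed by 4 or more were *Dkk2*, *Sfrp1*, *Sfrp2*, *Rspo2*, *Wnt2b*, *Wnt16*, *Fzd10* and *Wnt5b*. In 7 of them (16.3% of the 43) deletion-only intervals were ahead, compared with 8.94% of all 17643 genes with an interval. In *Wnt5b* alone (2.33%) parent-only intervals were ahead, compared with 3.72%. These backgrounds were not matched for the length of DNA nearest to a gene (median 83.4 kb for the Wnt genes, 47.2 kb for all genes). The plot of counts by gene shows that most of the other 35 genes had intervals on both sides.

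**Figure D1:**
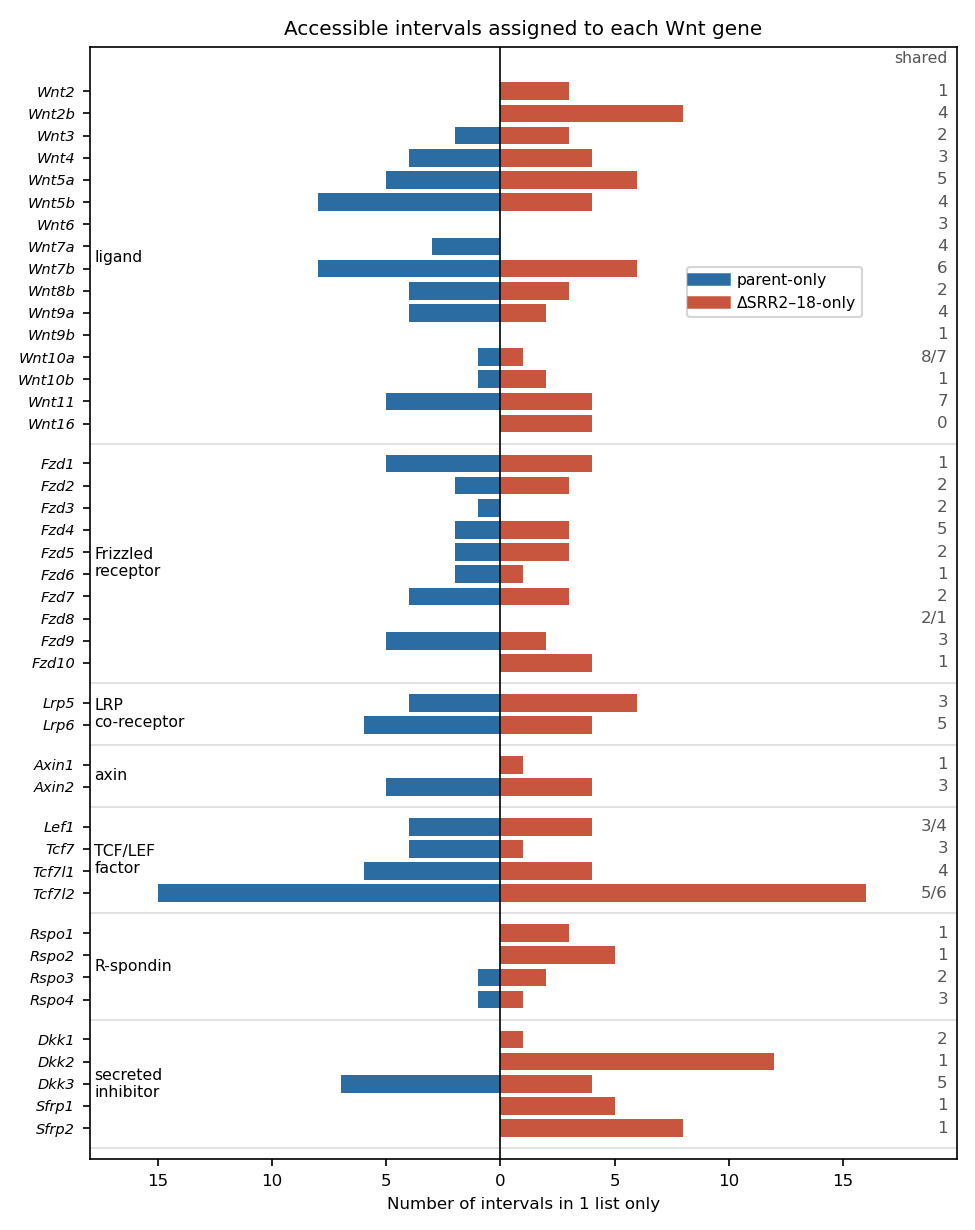
Number of parent-only (blue, to the left) and ΔSRR2–18-only (red, to the right) intervals assigned to each of the 43 genes, grouped by role, with the number of shared intervals in grey (parent list/ΔSRR2–18 list where they differ). *Dkk2* has 12 intervals to the right and none to the left, and *Tcf7l2* has the most on both sides, 15 and 16.

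The secreted inhibitors account for 3 of the 8 genes. *Dkk2*, an antagonist that binds LRP co-receptors, had 1 interval in the parent list, at its promoter, and 13 in the ΔSRR2–18 list. Its 12 deletion-only intervals lay on both sides of the TSS, 6 upstream and 6 downstream, at distances of 1.04 to 49.6 kb. Their fold enrichments ranged from 3.13 to 25.5 with a median of 8.65, and 3 of the 12 stood in the top 25% of the list. The strongest was intergenic, 34.1 kb upstream, and had a level of 50.6. The highest level, 70.7, belonged to an intronic interval 32.8 kb downstream.

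*Sfrp1* and *Sfrp2*, both of which encode soluble Frizzled-like proteins that bind Wnt ligands, likewise had a single parent interval each, at the promoter. *Sfrp1* had 5 deletion-only intervals, 3 upstream and 2 in an intron, with levels of 5.65 to 30.9. *Sfrp2* had 8 deletion-only intervals, 6 upstream and 2 downstream, with levels of 8.14 to 80.6. The highest of these is the *Sfrp2* element printed above, 13.9 kb upstream of the TSS, with a fold enrichment of 15.5. The remaining inhibitors differed from this pattern. *Dkk1*, an LRP antagonist, had 1 deletion-only and no parent-only interval. *Dkk3*, a divergent member of the family, had 7 parent-only and 4 deletion-only intervals, and SOX matches stood in 4 of the 7.

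*Rspo2*, a secreted R-spondin, had 1 parent interval, at the promoter, and 5 deletion-only intervals. They lay 8.92 to 41.9 kb from a TSS with levels of 6.36 to 55.2. *Rspo1* had no parent-only and 3 deletion-only intervals, *Rspo3* had 1 and 2, and *Rspo4* had 1 and 1.

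Among the ligands, *Wnt16* had no interval in the parent list and 4 in the ΔSRR2–18 list. One lay at the promoter, 0.755 kb downstream of a TSS, with a level of 18.1. The other three lay 7.73, 17.8 and 29.2 kb upstream, with levels of 83.7, 23.0 and 19.0. An AP-1 match was present within 100 bp of all 4 summits, compared with 50.8% of deletion-only intervals over all genes. *Wnt2b* had 4 shared intervals and 8 deletion-only intervals, with the highest level, 115, at 16.8 kb downstream of the TSS. *Wnt2* had 3 deletion-only intervals and no parent-only interval, 1 of them in an exon 40.6 kb downstream of the TSS with a fold enrichment of 25.5.

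*Wnt5b*, a ligand of the noncanonical branch, had 8 parent-only and 4 deletion-only intervals. Of the 8, 1 lay 0.0290 kb from a TSS and the rest lay up to 41.9 kb away, with levels of 6.59 to 53.9. The highest was intronic, 30.0 kb from the TSS, and is the SOX-containing element printed above. *Wnt7a*, a ligand expressed in the developing forebrain, had 3 parent-only intervals and no deletion-only interval. *Wnt7b*, its close relative, had 8 and 6. *Wnt6* and *Wnt9b* had neither kind.

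Of the receptors, *Fzd10* had 1 parent interval, at the promoter, and 4 deletion-only intervals, all upstream at 19.7 to 42.5 kb. Their levels were 7.22 to 33.5, and an AP-1 match was present at all 4, compared with 50.8% over all genes. *Fzd9* had 5 parent-only and 2 deletion-only intervals. One of the 5 had a fold enrichment of 24.2, the highest of the parent-only intervals of the 43 genes and in the top 2.45% of the parent list, and a level of 129 at 13.0 kb upstream. *Fzd8* had no interval in 1 list alone.

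In the other ligands and Frizzled receptors the counts differed by at most 2. Parent-only and deletion-only intervals numbered 5 and 6 for *Wnt5a*, 5 and 4 for *Wnt11*, 4 and 4 for *Wnt4*, 4 and 3 for *Wnt8b* and 4 and 2 for *Wnt9a*. *Wnt3* had 2 and 3, *Wnt10b* had 1 and 2, and *Wnt10a* had 1 and 1 beside 8 shared parent intervals. *Fzd1* had 5 and 4, *Fzd7* had 4 and 3, and *Fzd6* had 2 and 1. *Fzd2*, *Fzd4* and *Fzd5* each had 2 and 3, and *Fzd3* had a single parent-only interval. *Wnt5a* also had 5 shared intervals, as many as parent-only ones. The strongest parent-only intervals of *Wnt5a*, 24.6 kb downstream of a TSS, and *Fzd1*, 15.6 kb upstream, had levels of 38.5 and 36.8. Of the *Wnt7b* parent-only intervals, the one with the highest fold enrichment lay in an intron and had a level of 132. The highest level among them was 197.

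**Figure D2:**
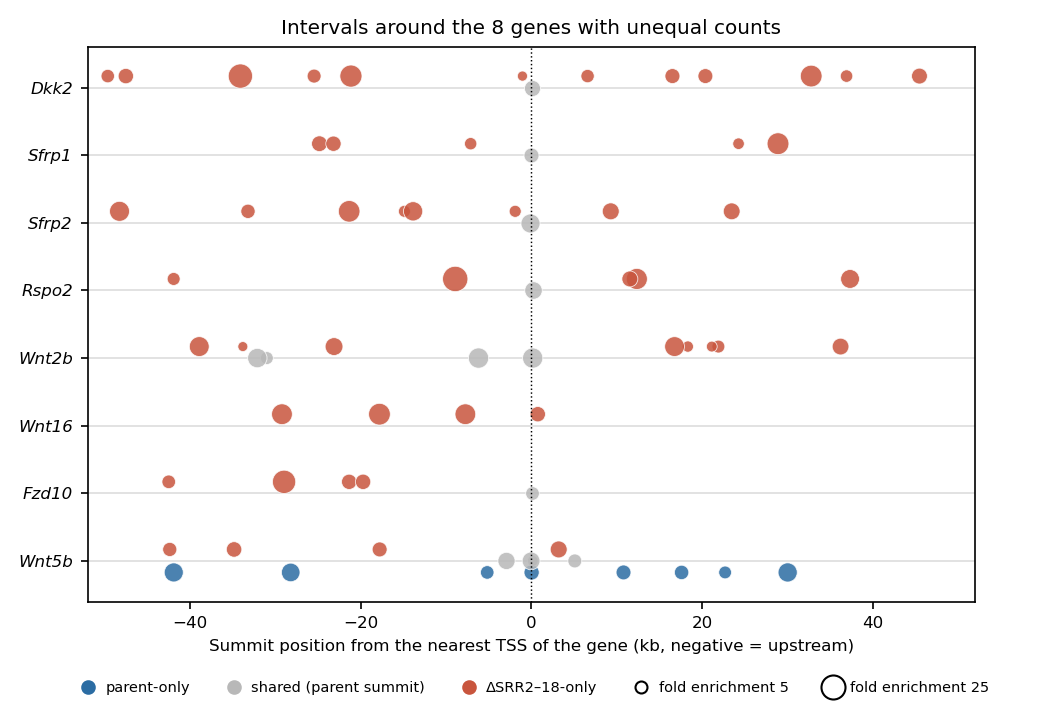
Position of each interval's strongest summit relative to the nearest TSS of its gene (kb, horizontal axis, upstream negative) for the 8 genes whose counts differ by 4 or more, with point area increasing with fold enrichment. In 7 genes no parent-only interval (blue) is present, and deletion-only intervals (red) reach 49.6 kb from the *Dkk2* TSS.

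Of the 43 genes, 9 had a single parent interval that lay at the promoter and was shared, namely *Wnt2*, *Wnt9b*, *Fzd10*, *Axin1*, *Rspo1*, *Rspo2*, *Dkk2*, *Sfrp1* and *Sfrp2*. In 7 of the 9 (77.8%), all but *Wnt9b* and *Axin1*, the ΔSRR2–18 list added 3 or more intervals. The background was 10.3% of 3153 such genes, or 25.8% of the 1117 whose nearest DNA was at least as long as the shortest of the 9 (37.9 kb). The median length was 89.2 kb for the 9 and 62.6 kb for those 1117, so the sets were not matched for it. This grouping was made after the counts were seen, and is given as a description. The 8 differences kept their sign under the 8 other settings tried at 50 kb, ranging from 9 to 12 for *Dkk2*, 6 to 11 for *Sfrp2*, 3 to 6 for *Sfrp1*, 4 to 5 for *Rspo2*, 3 to 8 for *Wnt2b*, 3 to 5 for *Fzd10* and −5 to −2 for *Wnt5b*, with 4 throughout for *Wnt16*. Within 10 kb only *Wnt16*, *Dkk2* and *Sfrp2* (2 each) and *Rspo2* and *Sfrp1* (1 each) had deletion-only intervals ahead, *Wnt2b* and *Fzd10* were at 0, and *Wnt5b* was at −1.

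The TCF/LEF factors, through which β-catenin acts on DNA, showed turnover on both sides. *Tcf7l2* had 20 parent and 22 ΔSRR2–18 intervals, of which 15 were parent-only and 16 deletion-only. With 9 TSSs and 201 kb of nearest DNA it was also the gene with the most room. *Tcf7l1* had 6 and 4, *Lef1* had 4 and 4, and *Tcf7* had 4 and 1. At *Lef1*, 3 of the 4 parent-only and 1 of the 4 deletion-only intervals had a TCF/LEF match. The co-receptors *Lrp5* (4 and 6) and *Lrp6* (6 and 4) and the scaffold gene *Axin2* (5 and 4), a feedback target of the pathway, were mixed as well. *Axin1* had a single deletion-only interval.

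Promoters were mostly open in both lines. A promoter interval was present at 38 of the 43 genes in the parent list and at 39 in the ΔSRR2–18 list, compared with 55.8% and 59.0% of all 21911 genes. At 37 genes it was present in both lists. *Wnt3*, *Wnt8b* and *Wnt10a* had none in either list. In 3 genes it was present in 1 list only, *Fzd8* in the parent list and *Dkk3* and *Wnt16* in the ΔSRR2–18 list, compared with 9.92% of all genes. At *Fzd8* and *Dkk3* the other line had an overlapping interval whose strongest summit lay just beyond 1 kb, at 1162 bp and 1263 bp. The *Wnt16* interval had no overlapping interval in the parent list. The 7 parent-only promoter intervals lay at *Wnt7b* (2), *Wnt5b*, *Wnt10b*, *Wnt11*, *Fzd2* and *Lrp6*, genes that also had a shared promoter interval.

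The level of the promoter intervals differed more. *Sfrp1* had a level of 8.88 in the parent line and 78.8 in the ΔSRR2–18 line, a log2 ratio of 3.15 (8.88-fold). Of the 11493 promoters present in both lists, 25, including *Sfrp1*, had a ratio as high. *Wnt2* went from 10.2 to 28.0 (log2 ratio 1.46) and *Fzd10* from 7.13 to 16.0 (1.16). In the opposite direction, *Wnt7a* had levels of 43.9 and 9.87 (log2 ratio −2.15), and 102 promoters, including *Wnt7a*, had a ratio as low. The *Wnt7a* summits were 423 bp apart, so the levels are at different positions in overlapping intervals. *Tcf7*, which encodes a TCF/LEF factor, had 65.3 and 19.5 (−1.75), *Wnt4* had 41.6 and 16.3 (−1.35), and *Wnt6* had 30.6 and 13.1 (−1.22), with summits 457 bp apart. *Sfrp2* had 62.0 and 27.0 (−1.20), so that its promoter was lower in the line in which it had 8 additional intervals. *Lrp6* had 85.7 and 41.2 (−1.06). These 9 promoters were the ones 2-fold or more apart.
*Sfrp1*, shared promoter, chr8:23411402-23411502: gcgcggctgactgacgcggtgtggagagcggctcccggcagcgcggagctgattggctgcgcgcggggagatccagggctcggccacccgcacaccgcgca
*Tcf7*, shared promoter, chr11:52283246-52283346: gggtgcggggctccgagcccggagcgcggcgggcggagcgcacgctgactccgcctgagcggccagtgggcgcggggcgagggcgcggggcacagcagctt

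The *Sfrp1* window just printed, upstream of the TSS, had no match to the 6 motifs searched. At the *Tcf7* promoter a TCF/LEF match was present within 100 bp of the summit in both lists, outside the bases printed. The highest promoter levels in both lines belonged to *Axin1* (205 and 169), *Fzd5* (190 and 118), *Fzd7* (144 and 106) and *Fzd4* (141 and 117), each less than 2-fold apart between the lines.

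**Figure D3:**
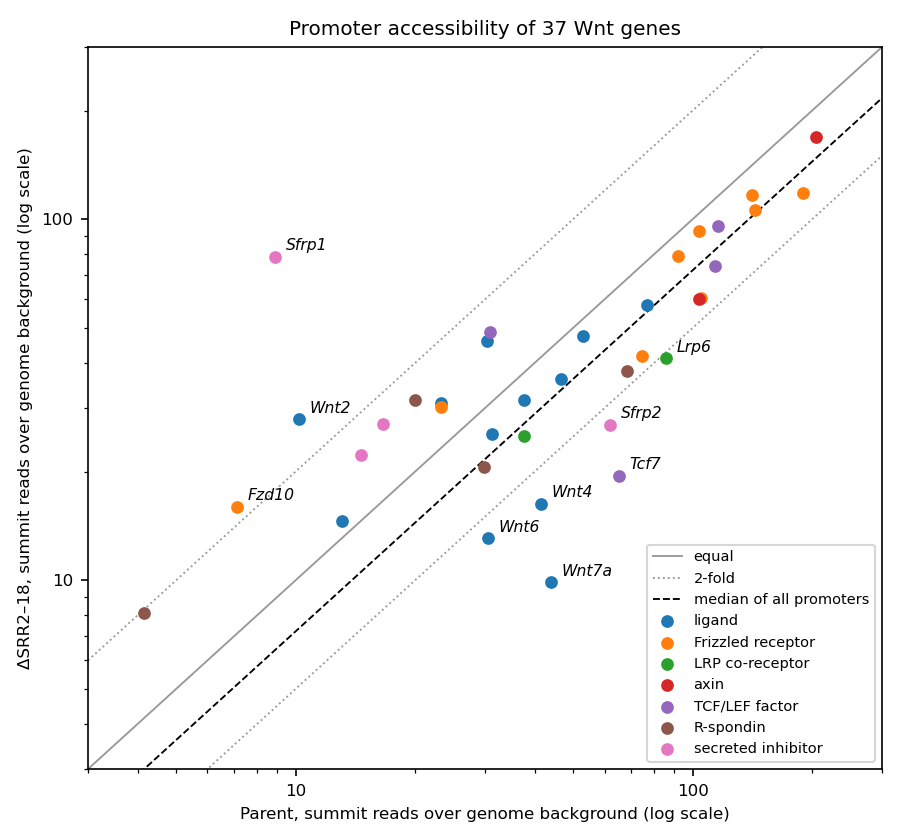
Promoter level (summit reads over genome background) in the parent line (horizontal, log scale) and the ΔSRR2–18 line (vertical, log scale) for the 37 genes with a promoter interval in both lists, colored by role, with 1 point per gene and no replicate error. Where a gene had several promoter intervals, the one with the most reads in each list was taken, which can be different intervals, as at *Wnt5b*. Named genes differ by 2-fold or more, and *Sfrp1* (8.88 and 78.8) lies farthest above the line of equal levels.

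Counted over the 37 genes, 3 promoters (8.11%) were 2-fold or more higher and 6 (16.2%) 2-fold or more lower in ΔSRR2–18 NSPCs, compared with 3.88% and 12.6% of all promoters. The median log2 ratio was −0.29 for the Wnt genes and −0.47 for all promoters, so most promoters had a lower level in the ΔSRR2–18 list. Relative to that median, 9 Wnt promoters (24.3%) were 2-fold or more higher and 2 (5.41%, *Wnt7a* and *Tcf7*) 2-fold or more lower, compared with 6.64% and 3.72% of all promoters. The direction of the split thus depended on the centring. On the centred scale *Sfrp1* had 3.62, *Wnt2* 1.93, *Fzd10* 1.63 and *Rspo4* 1.44, and *Wnt7a* had −1.68, *Tcf7* −1.28 and *Sfrp2* −0.73. The *Rspo4* levels were low, 4.14 and 8.14. They came from 161 and 160 summit reads, so the *Rspo4* value reflects the depth scaling and the centring.

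Shared intervals at and away from promoters gave 123 overlapping pairs. Their median log2 ratio of levels was −0.15, compared with −0.24 for all 40114 pairs at any distance from a TSS. In 19 pairs (15.4%) the level was 2-fold or more higher in the ΔSRR2–18 line and in 22 (17.9%) 2-fold or more lower, compared with 16.0% and 16.5% of all pairs. Relative to the median of all pairs the counts were 24 and 15, compared with 19.4% and 11.8%. These shares were near their backgrounds. By role, the median ranged from −0.82 for LRP co-receptors (8 pairs) and −0.80 for axins (5 pairs) to 0.44 for TCF/LEF factors (17 pairs) and 0.65 for secreted inhibitors (10 pairs). Ligands, with 55 pairs, had 4 higher and 10 lower, against 16.0% and 16.5% of all pairs. Frizzled receptors (21 pairs) had 4 and 3, TCF/LEF factors 4 and 2, and LRP co-receptors 3 and 4. The other roles had at most 2 of either kind.

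The pairs farthest apart were mostly distal. The highest ratio belonged to a *Tcf7l2* pair 30.9 kb upstream of a TSS, with levels of 4.48 and 52.3 (log2 ratio 3.55). The summits of that pair were 921 bp apart, so the 2 levels describe different positions in overlapping intervals. A *Fzd7* pair 5.34 kb downstream had 7.90 and 71.4 (3.17), with summits 9 bp apart, and the *Sfrp1* promoter followed. The lowest ratios belonged to a *Fzd3* pair 16.8 kb downstream with 93.1 and 11.0 (−3.08), a *Lrp6* pair 29.0 kb downstream with 48.2 and 6.92 (−2.80) and a *Lrp5* pair 5.06 kb downstream with 75.2 and 14.9 (−2.34). *Lrp6* had pairs in both directions, since another pair, 39.1 kb downstream, had 8.39 and 45.7 (2.45). The summits of these *Lrp6* pairs were 348 bp and 768 bp apart, so that here too the levels are at different positions.

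**Figure D4:**
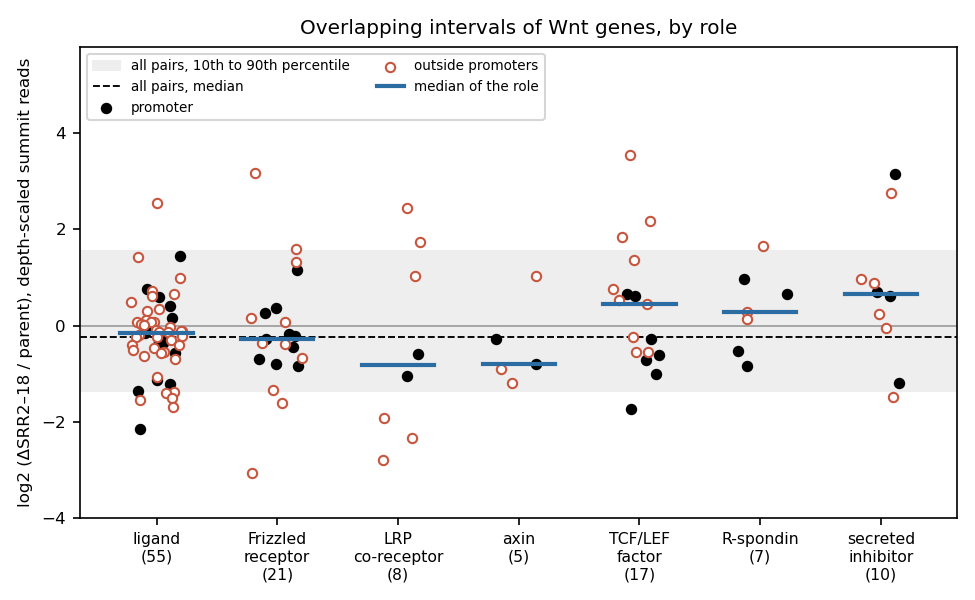
Log2 ratio of depth-scaled summit reads (ΔSRR2–18 over parent) for the 123 overlapping pairs, by role with the number of pairs in parentheses, at promoters (filled) and elsewhere (open), with the median of each role (blue bar) and the median and 10th to 90th percentile of all pairs (dashed line and grey band). *Tcf7l2* (3.55) and *Fzd3* (−3.08) mark the ends, and most points lie within the grey band.

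The sequence under the summits differed between the 2 kinds of interval. AP-1 matches (TGANTCA, bound by FOS and JUN proteins) were present within 100 bp of the summit in 73 of 154 deletion-only intervals (47.4%, 39.7 to 55.3) and in 3 of 121 parent-only intervals (2.48%, 0.847 to 7.04). In flanking windows 500 bp away, the deletion-only share was 5.84%. Over all genes the shares were 50.8% and 4.18%, so the Wnt genes had the AP-1 share of deletion-only intervals in general. SOX matches were present in 25 parent-only intervals (20.7%, 14.4 to 28.7, all genes 14.4%, flanks 8.26%) and in 8 deletion-only intervals (5.19%, 2.66 to 9.92, all genes 6.16%). HOX-PBX matches (TGATTNAT) were present in 1 parent-only and 14 deletion-only intervals (9.09%, all genes 8.54%).

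Matches to TCF/LEF, the DNA-binding partners of β-catenin, were present in 11 parent-only intervals (9.09%, 5.15 to 15.5) and 11 deletion-only intervals (7.14%, 4.03 to 12.3), compared with 6.48% and 6.40% over all genes. Neither share was apart from its background beyond counting error. ZIC matches (CAGCAGG) were present in 14 parent-only (11.6%, all genes 12.9%) and 13 deletion-only intervals (8.44%, all genes 8.45%). Matches to the core of the CTCF motif were present in 7 (5.79%, all genes 3.79%) and 1 (0.649%, all genes 1.40%). An AP-1 and a HOX-PBX match can share the same bases, and such a stretch was counted for both. Each motif was searched on both strands, and a match describes the letters, not a bound factor.

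**Figure D5:**
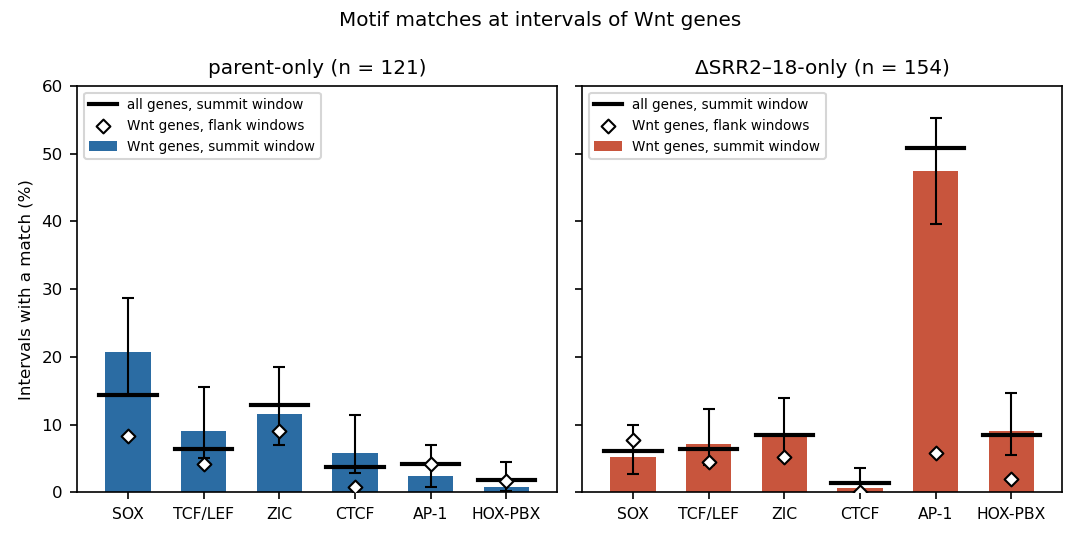
Share of parent-only (left) and ΔSRR2–18-only (right) intervals of the 43 genes with an exact motif match within 100 bp of the summit (bars, with 95% Wilson intervals), beside the share over all genes (black line) and in flanking windows of the same intervals (diamonds). AP-1 reaches 47.4% in deletion-only intervals and 2.48% in parent-only intervals.

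The AP-1 matches were spread over the roles. They were present in 24 of 50 deletion-only intervals of ligands, 12 of 23 of Frizzled receptors and 11 of 25 of TCF/LEF factors. R-spondins had 7 of 11, secreted inhibitors 13 of 30, LRP co-receptors 4 of 10 and axins 2 of 5. The share over all genes was 50.8%. At *Dkk2*, 5 of 12 had one. The count was 4 of 4 at *Wnt16* and *Fzd10*, but 2 of 8 at *Wnt2b*, 1 of 5 at *Sfrp1* and 0 of 3 at *Wnt2*. The elements printed above include a *Dkk2* interval 25.5 kb upstream with adjoining TCF/LEF and AP-1 matches and a level of 20.5, and a *Dkk2* intronic interval 20.4 kb downstream with a pair of AP-1 matches and a level of 13.0. The 5 deletion-only intervals with the highest fold enrichment belonged to *Rspo2* (27.9), *Wnt2* (25.5), *Dkk2* (25.5), *Fzd9* (23.6) and *Fzd10* (23.3), and the 5 such parent-only intervals to *Fzd9* (24.2), *Lef1* (21.2), *Wnt5a* (21.1), *Wnt7b* (20.8) and *Fzd1* (20.7).

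The same counts were made for 35 other genes of the pathway. They had 92 parent-only (51.7%) and 83 deletion-only (47.7%) intervals, compared with 45.0% and 53.0% over all genes. More of the former were found at 18 genes, more of the latter at 11, and equal numbers at 6. This split too was not counted over all genes. *Ctnnb1*, which encodes β-catenin, had 1 parent-only and 8 deletion-only intervals, and so did *Ror2*, a receptor for noncanonical ligands. *Wls*, needed for Wnt secretion, had 2 and 7, and *Lgr5*, an R-spondin receptor, had 2 and 6. *Znrf3*, a ubiquitin ligase that removes Frizzled receptors, had 10 and 2. *Ror1*, a relative of *Ror2*, had 8 and 4, and *Nkd2*, an intracellular antagonist, had 4 and 0. Among inhibitors outside the 43 genes the excess of deletion-only intervals was not seen, with 2 and 0 at *Wif1*, 3 and 2 at *Frzb*, 1 and 1 at *Sfrp4*, 2 and 3 at *Sfrp5* and no interval at *Dkk4*. Of the ligands outside the 43 genes, *Wnt3a* had 1 and 2, with a promoter interval in the ΔSRR2–18 list only, as at *Sfrp5*. *Wnt1* had 2 and 0, with a promoter interval in both lists, and *Wnt8a* had 1 and 0, with a promoter interval in neither.

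The 50 kb limit left out intervals close to it. The intervals just inside were at 49.63 kb (*Dkk2*), 49.59 kb (*Lef1*) and 49.26 kb (*Wnt11*), and those just outside were at 50.12 kb (*Wnt7a*), 50.38 kb (*Axin2*) and 50.56 kb (*Wnt5a*).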

How the data were processed

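Accessibility was profiled by ATAC-seq in 3 cultures each of parent Sox2–mCherry and ΔSRR2–18 NSPCs. The authors ran the ENCODE ATAC-seq pipeline on mm10, with MACS2 peak calls and IDR across the cultures of a line, and deposited a conservative and an optimal peak list per line, 4 in all. Each peak carries a score (the IDR score, 540 to 1000), a fold enrichment ratio over local background and −log10 p and q values, as deposited by the authors. Depth per culture is not given in these lists. Reads of the *M. castaneus* allele that carry differences from mm10 may align at a lower rate.

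The conservative lists were used. Distinct intervals took the values of their summit with the highest fold enrichment and were assigned to the nearest TSS of 21938 protein-coding genes (GENCODE M21 basic). Summit reads and local background were solved from fold enrichment and −log10 p, and came out whole within 0.05 for 99.9993% of parent and 100% of ΔSRR2–18 summits. They are pileup heights, not counts of distinct fragments. Levels were divided by the lowest background of the list, and a 2-fold difference was used for counts. Motifs were exact matches within 100 bp of the summit, with flanks of 202 bp in all at 500 bp. Overlaps, read recovery and the motif scan were tested on simulated data (Python 3.11.15, numpy 2.4.6, pandas 2.3.3, scipy 1.17.1).

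The members and gene lists were chosen with earlier results of these data known. Named in detail were genes whose counts differed by 4 or more, genes with a promoter interval in 1 list only, the 3 pairs with the largest ratio in each direction, and the 5 strongest parent-only and deletion-only intervals. Other genes named, the promoters 2-fold apart, the promoter windows and the windows with several matches were chosen after their values were seen. Alternatives were the optimal lists, an IDR score of at least 830, a gene distance of 10 kb, 1 TSS per gene, a reciprocal overlap of 50%, a summit that falls within an interval of the other list, lists of the same length, absence from both lists of the other line, a −log10 p of at least 50 at a common depth, a promoter distance of 2.5 kb, any base within 1 kb, a motif window of 50 bp, intervals outside promoters, centring on the median, and the summit with the most reads.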

Additional observations from a re-analysis of the deposited data

How the results depend on the processing

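No paired analysis was possible because the lists pool the 3 cultures of each line and no result comes from a test, and for the same reason no culture could be left out in turn. At a gene distance of 10 kb there were 101 parent and 107 ΔSRR2–18 intervals, of which 32 were parent-only and 37 deletion-only. With a motif window of 50 bp, AP-1 was present in 33.1% of deletion-only intervals, SOX in 13.2% of parent-only intervals, TCF/LEF in 4.13% and 3.90% and ZIC in 5.79% and 4.55% of parent-only and deletion-only intervals. Centring on all pairs moved the median log2 ratio of pairs from −0.15 to 0.09. The other 56 values computed under alternatives stayed within 1.5 times the value reported or within its counting interval, and none changed sign. That range includes the 151 parent-only and 106 deletion-only intervals of equally long lists, where the order of both counts turns. Of the alternative values for the 8 named genes, 13 moved by more and 59 did not. Depth limits the weakest intervals, since the parent list has 1.98 times the background reads of the ΔSRR2–18 list.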
